A study of Mus musculus with 2 samples.

Results

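The 79 genes described here encode protein subunits of the cytosolic ribosome. They were chosen by symbol alone, as every row named Rpl or Rps followed by a number and, where present, a suffix for a paralog, out of 31057 rows. Of them 48 belong to the large and 31 to the small subunit, and they lie on 19 chromosomes. The samples were 2 single-cell RNA libraries of liver cells, 1 control and 1 cirrhosis, each made from a pool of 3 mice. All mice were C57BL/6, 16 weeks old, and carried Cdh5-Cre+ and mTmG +/+, so both groups shared the reporter. Cdh5-Cre is a recombinase under the control of an endothelial promoter, and mTmG turns cells that have expressed it from tdTomato to GFP. The cirrhosis group had inhaled vaporized CCl4, a toxin of hepatocytes, for 12 weeks, and no treatment of the control group is named in the labels. Live GFP+ cells of the non-parenchymal fraction were sorted, and transcripts were counted as unique molecular identifiers (UMIs), each standing for 1 captured molecule.

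Each cytosolic ribosome carries a single copy of most of these proteins, arranged on the ribosomal RNA of a large subunit, which joins amino acids, and a small subunit, which reads the mRNA. The mRNAs of vertebrate ribosomal proteins usually begin with a stretch of pyrimidines at the cap, the 5′ terminal oligopyrimidine (TOP) motif, through which their translation follows growth signals. In the liver sinusoid, a fenestrated endothelium (LSECs) lines the capillaries from the portal tract to the central vein, and Kupffer cells, the resident macrophages, lie on it.

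The starts of the members with the highest and lowest ratios described further on are shown here because the TOP motif is the sequence feature these mRNAs are known for. Each window runs from 15 bases before to 15 bases after a RefSeq transcript start on GRCm38.p6, 5′ to 3′ on the strand of the gene. Capitals mark the longest unbroken run of C and T that reaches within 5 bases of the start, where that run has at least 5 bases.
Rpl15, chr14:18270972-18271001, minus strand: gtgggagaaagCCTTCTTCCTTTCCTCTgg
Rps6, chr4:86857353-86857382, minus strand: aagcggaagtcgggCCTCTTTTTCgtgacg
Rpl5, chr5:107900513-107900542, plus strand: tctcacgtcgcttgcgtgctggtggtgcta
Rps27, chr3:90213634-90213663, minus strand: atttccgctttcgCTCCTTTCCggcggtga
Rpl38, chr11:114668565-114668594, plus strand: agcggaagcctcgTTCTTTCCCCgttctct
Rps28, chr17:33824548-33824577, minus strand: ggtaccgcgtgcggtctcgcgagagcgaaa
Rpl15 and Rps6, high in cirrhosis, and Rps27 and Rpl38, among the lowest, all carried such a run, while Rpl5 at the high end and Rps28 at the low end did not at their listed starts. RefSeq windows of 300 bases were matched for 60 of the 79 members, and 23 of the 60 (38.3%) had a run of at least 8 pyrimidines at a start, against 10.96% of 27025 genes. At the 5 bases marked above the shares lay closer, 34 of 60 (56.7%) against 35.1%. In the same windows, searched on both strands, CCGGAAG was found in 24 of 60 members (40.0%) against 9.93% of all genes, GCCATNTT in 13 (21.7%) against 6.96%, and TATAAA in 6 (10.0%) against 15.7%. Among the genes tested in LSEC-like cells the shares were 12.7% for the run of at least 8, 22.5% for CCGGAAG, 11.9% for GCCATNTT and 8.39% for TATAAA. Of the 57 members tested that had a window, the 23 with a run of at least 8 pyrimidines had a median log2 ratio of 0.47, and the 34 with a shorter run or none had 0.50.

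The control library held 5642 barcodes and 45767322 UMIs, the cirrhosis library 8327 barcodes and 77339928 UMIs, with medians of 6864.5 and 8537 UMIs per barcode. The same 17 barcode sequences occurred in both libraries. After filtering, 4953 and 7191 cells were kept, and 11 classes with at least 50 cells per library were compared: LSEC-like cells as a whole, their pericentral, intermediate and periportal zones, large-vessel endothelium, and 6 types that are not endothelial. All 11 LSEC markers were detected in the LSEC-like cells of both libraries, although they summed to 26506 CPM (counts scaled to the same total in each class and library) in control and 16351 CPM in cirrhosis. The libraries stood apart in the clustering: of the 2990 control LSEC-like cells, 1966 came from first-step cluster 2 and 892 from cluster 1, whereas 2357 of the 3165 in cirrhosis came from cluster 13 and 416 from cluster 16. Immediate-early genes, known to respond to cell handling, made up 1.73% of control and 0.497% of cirrhosis UMIs in LSEC-like cells. The median without them, other cell types' markers and heat shock genes in the total is given further on. Beyond that, their part in the ribosomal protein result was not tested. With 1 library per group no test between groups was possible, and all intervals given are exact 95% intervals that cover counting error only.

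The members took a larger part of the transcriptome in cirrhosis in most classes. In all LSEC-like cells they made up 7.23% of UMIs (7.22 to 7.24) in control and 9.89% (9.88 to 9.90) in cirrhosis, a 1.37-fold higher share. The quartiles over cells were 5.49% and 8.11% in control and 7.63% and 11.1% in cirrhosis, so the cells of the libraries overlapped. Pericentral LSEC-like cells had 7.31% in control and 10.4% in cirrhosis, and intermediate cells 7.28% and 10.1%. Periportal cells had 7.07% and 8.77%. The control shares of the 3 zones lay close together, and the cirrhosis shares were spread more widely, with the periportal zone lowest. The zones drew on different second-step clusters in the 2 libraries: of the intermediate cells, 1101 of 1450 in control came from cluster 4 and 997 of 1341 in cirrhosis from cluster 1. Of the pericentral cells, 31 of 494 in control and 274 of 897 in cirrhosis came from cluster 3, led by Rspo3, Wnt9b and Vwf, which had low LSEC and high large-vessel markers and shares of 9.49% and 10.4%. The 11 large-vessel markers summed to 1326 CPM in control and 3718 in cirrhosis pericentral cells. Without cluster 3 the median log2 ratio of the members in pericentral cells was 0.56, against 0.54 with it. Large-vessel endothelial-like cells, led by Adgrg6, Gja5 and Vwf among others, had 9.89% and 11.1%.

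**Figure D1:**
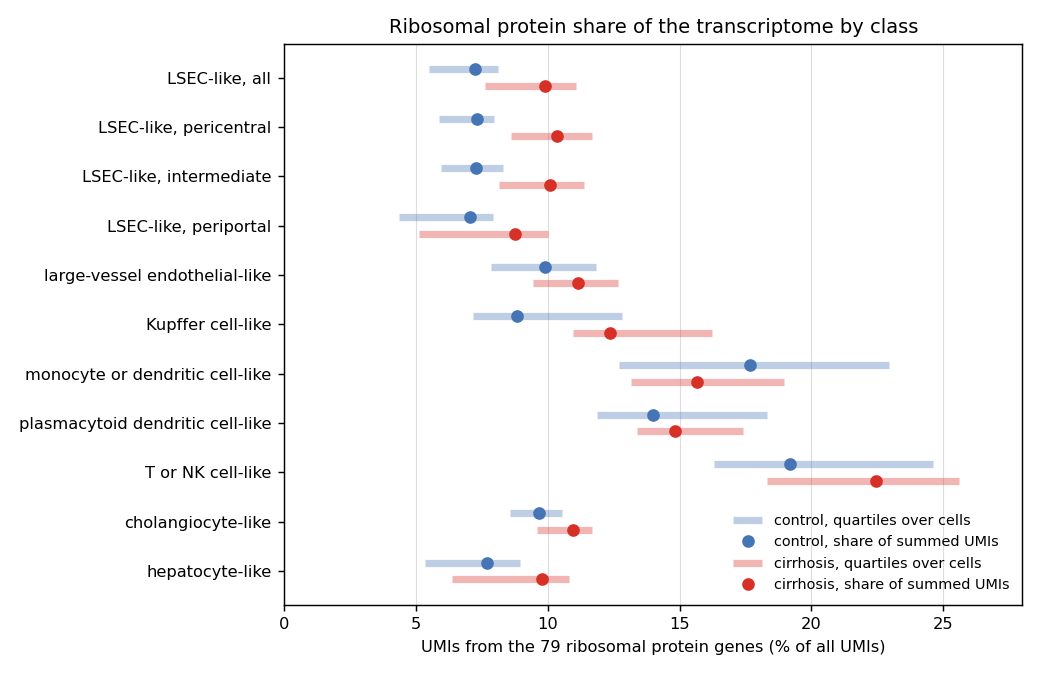
Share of UMIs from the 79 ribosomal protein genes (x axis, percent) in each of the 11 classes (y axis), for the control (blue) and cirrhosis (red) library. Points are shares of summed UMIs and bars run from the lower to the upper quartile over cells; the cirrhosis point lies to the right in every class but the monocyte or dendritic cell-like one.

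Outside the endothelium the spread between types was wider than the difference between the libraries. Kupffer cell-like cells had 8.83% in control and 12.4% in cirrhosis, and hepatocyte-like cells 7.70% and 9.80%. T or NK cell-like cells had 19.2% and 22.4%. Cholangiocyte-like cells, of the bile duct lining, had 9.67% and 10.96%, and plasmacytoid dendritic cell-like cells 14.0% and 14.8%. Monocyte or dendritic cell-like cells alone among the compared classes had the lower share in cirrhosis, 15.7% against 17.7%. B cell-like cells, with 47 control and 123 cirrhosis cells too few for the comparison, stood at 25.1% and 25.7%, and neutrophil-like cells, with 19 and 50 cells, at 5.44% and 4.85%.

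The share moved with the number of UMIs in a cell, and the cirrhosis LSEC-like cells were deeper, with a median of 9961 UMIs against 6973. Within bins of 1000 to 2000 UMIs the share was 3.55% in 84 control cells and 3.07% in 37 cirrhosis cells, and from 2000 to 4000 UMIs it was 4.77% and 4.79%. From 4000 to 8000 UMIs it was 6.96% and 7.78%. From 8000 to 16000 UMIs it was 7.83% and 10.3%, and from 16000 to 32000 UMIs 7.20% and 10.4%. The libraries thus did not differ in 1 direction below 4000 UMIs, and the cirrhosis share was the higher one in each bin above. Averaged over bins with equal weights for both libraries, the share was 7.09% in control and 8.72% in cirrhosis, a log2 ratio of 0.30 against 0.45 without matching. When each cell was thinned to 2000 UMIs, which left out 94 control and 42 cirrhosis cells, the shares were 6.96% and 9.34%, and the median cell held 58 and 64 of the members.

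**Figure D2:**
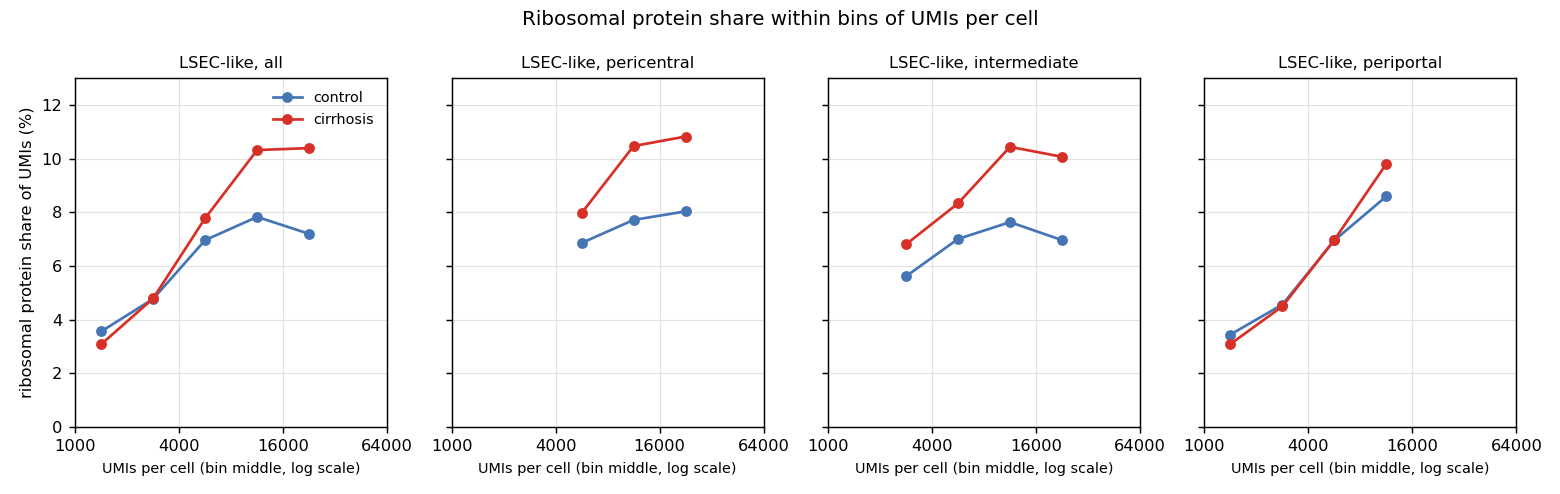
Ribosomal protein share of UMIs (y axis, percent) in LSEC-like cells within bins of UMIs per cell (x axis, bin middle on a log scale), for all cells and each zone, in control (blue) and cirrhosis (red). Bins with under 20 cells in either library are left out; the lines separate above 4000 UMIs in all cells and stay close in the periportal zone up to 8000.

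The shallow bins differed in other ways as well. In the bin of 1000 to 2000 UMIs, mitochondrially encoded genes made up 11.5% of control and 15.8% of cirrhosis UMIs, and from 8000 to 16000 UMIs 8.04% and 8.25%. A second-step cluster of 454 control and 356 cirrhosis cells, led by Dnm3os, Gm42418 and Lars2 and named periportal-like from its markers, had medians of 3348.5 and 3717.5 UMIs and a ribosomal protein share of 5.01% and 5.64%. All periportal markers were above the mean of the other clusters, but none was among its leading genes. Its mean marker fold (log2) was 0.66 for the periportal and 0.86 for the LSEC markers. Its part in the result was measured by leaving it out, which gave a log2 ratio of the share of 0.45 in all LSEC-like cells.

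Of the 79 members, 76 reached a mean of 20 CPM with counts in both libraries in LSEC-like cells. The other three, Rpl3l, Rpl10l and Rpl39l, are paralogs known for expression in muscle or testis. Rpl10l had no UMI in either library, which allows up to 0.134 CPM in control and 0.0930 in cirrhosis, Rpl3l had 1 UMI in each, and Rpl39l had 14 and 25. Of the 76, 70 had a higher CPM in cirrhosis and 6 a lower one, where 45.4% of the 6899 genes tested were higher. At least 25% higher, the threshold used throughout, were 61 members, against 12.6% of all genes. None was lower by the same factor, that is by at least 20%, against 16.4% of all genes, and 20 were at least 1.5-fold higher, against 5.02%. The median log2 ratio of the members was 0.50, against -0.03 over all genes, and the large and small subunits had medians of 0.50 and 0.49. With depth matched, the median was 0.34, and 44 members were at least 25% higher, against 11.5% of all genes. Then 8 members had a lower CPM in cirrhosis, and 1 was lower by at least 20%. The shares of all genes that were lower were not computed with depth matched.

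**Figure D3:**
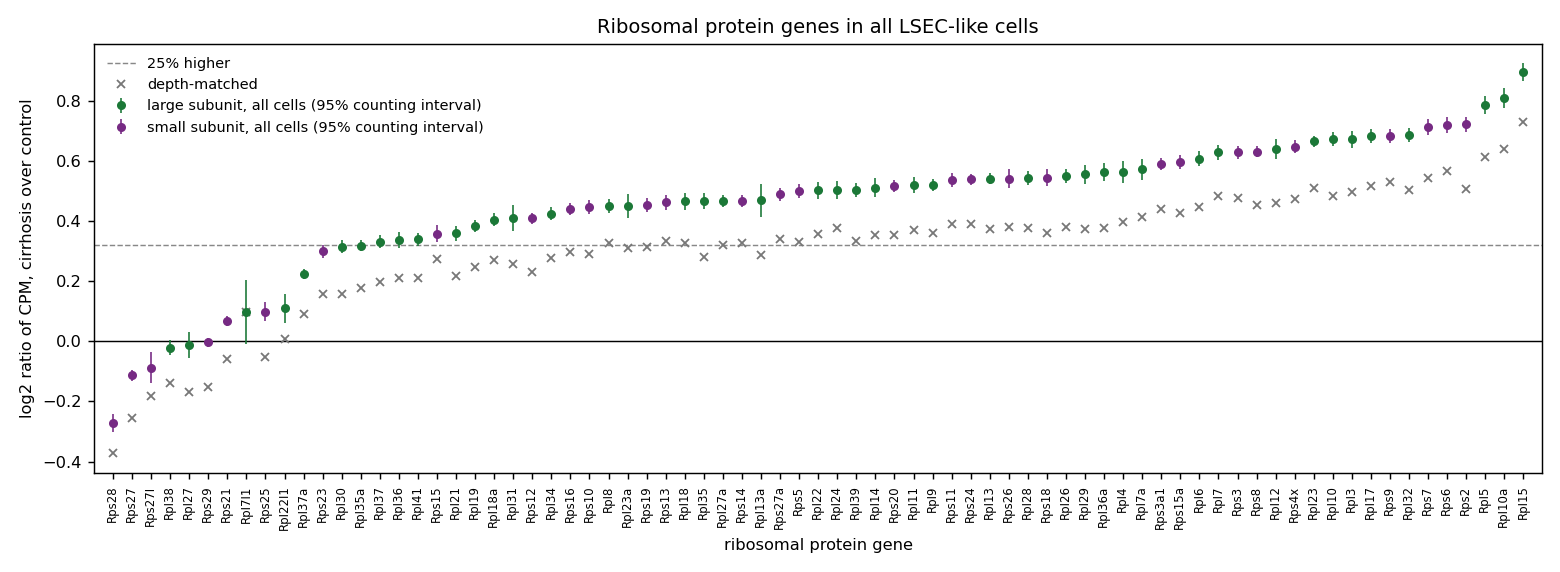
Log2 ratio of CPM, cirrhosis over control, in all LSEC-like cells (y axis) for 75 of the 76 ribosomal protein genes that passed the filter (x axis, ordered by ratio), with the large subunit in green, the small in purple, exact 95% counting intervals as bars and depth-matched ratios as grey crosses. The members run from -0.27 for Rps28 to 0.89 for Rpl15, and 61 lie above the dashed line at 25% higher.

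The 6 highest members came from both subunits. Rpl15, a protein of the large subunit, had 567.9 CPM in control and 1056 in cirrhosis LSEC-like cells, 1.86-fold higher (log2 ratio 0.89, interval 0.86 to 0.92). Rpl10a, which forms the mobile stalk beside the site where tRNA leaves, had 438.8 and 769.3 CPM, 1.75-fold higher (log2 ratio 0.81, interval 0.78 to 0.84). Rpl5, which carries 5S ribosomal RNA into the large subunit, had 578.1 and 996.3 CPM, 1.72-fold higher. The 3 large-subunit genes were followed by 3 of the small subunit. Rps2, at the channel through which mRNA enters, had 796.4 and 1314 CPM (log2 ratio 0.72), Rps6, the classical substrate of the S6 kinases, 732.1 and 1206 CPM (0.72), and Rps7 751.9 and 1231 CPM (0.71). With depth matched, the log2 ratios of these genes were 0.73 for Rpl15, 0.64 for Rpl10a, 0.61 for Rpl5, 0.51 for Rps2, 0.57 for Rps6 and 0.54 for Rps7.

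The 6 lowest members were at or below their control level while the other members were higher. Rps28, which lies where mRNA leaves the small subunit, had 772.8 CPM in control and 640.1 in cirrhosis, a log2 ratio of -0.27 (interval -0.30 to -0.24). Rps27, a zinc-binding protein of the small subunit, had 1888 and 1746 CPM (log2 ratio -0.11, interval -0.13 to -0.09), and its paralog Rps27l, known as a target of p53, had 228.9 and 215.5 CPM (-0.09, interval -0.14 to -0.03). The intervals of these genes lie below zero. Rpl38, known for its role in the translation of Hox mRNAs, had 1074 and 1059 CPM (-0.02, interval -0.04 to 0.00), and Rpl27 341.3 and 338.2 CPM (-0.01, interval -0.06 to 0.03). Rps29, a small zinc-binding protein of the head of the small subunit, had 2505 and 2500.3 CPM (0.00, interval -0.02 to 0.01). For Rpl38, Rpl27 and Rps29 the interval spans zero, so without depth matching no difference beyond counting error was seen. These intervals do not cover the effect of matching depth. With depth matched, 8 members rather than 6 had the lower CPM in cirrhosis, and the log2 ratio of Rps27 was -0.26.

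By place on the ribosome, most groups had higher ratios, as did 70 of the 76 members, and 61 of the 76 were at least 25% higher, against 12.6% of all genes. The counts of these groups are therefore read as a description and not as particular to them. Both proteins that travel with 5S ribosomal RNA were at least 25% higher, Rpl5 as given and Rpl11 with 754.7 and 1082 CPM (log2 ratio 0.52). All 9 members at the tunnel through which the new protein leaves and at its rim were at least 25% higher, from 0.38 for Rpl19 to 0.68 for Rpl17, with a median of 0.50. At the mRNA entry, Rps3 had 1121 and 1734 CPM (0.63) beside Rps2. At the mRNA exit, Rps26 had 516.1 and 750.8 CPM (0.54) and Rps14 1452 and 2008 CPM (0.47), whereas Rps28 was lower. The 3 members of the beak of the small subunit, Rps10, Rps12 and Rps27a, had ratios of 0.45, 0.41 and 0.49. Of 10 members that are mutated in Diamond-Blackfan anaemia, a failure of red cell formation, 8 were at least 25% higher and their median was 0.53, with Rpl35a just under that threshold at a log2 ratio of 0.32.

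Rpl22l1 and Rpl7l1, paralogs of members, had smaller ratios than their partners. Rpl22 had 679.9 and 963.0 CPM (log2 ratio 0.50) and Rpl22l1 251.9 and 271.7 CPM (0.11), so the share of Rpl22l1 among the UMIs of the pair was 27.0% (26.4 to 27.6) in control and 22.0% (21.6 to 22.4) in cirrhosis. Rpl7 had 851.8 and 1317 CPM (0.63) and Rpl7l1, a protein of ribosome precursors, 51.8 and 55.4 CPM (0.10), and the share of Rpl7l1 was 5.73% and 4.04%. For Rps27l the share of the pair was the same within counting error, 10.81% (10.54 to 11.10) and 10.99% (10.75 to 11.23). Rpl36al, which the naming rule leaves out, was lower (156.5 and 135.3 CPM, log2 ratio -0.21) beside Rpl36a at 556.7 and 822.2 CPM (0.56). Reads of 9 members may be shared with 10 rows for near-identical copies, among them Rps27rt with 62.0 and 52.2 CPM and Rpl27-ps3 with 38.5 and 44.6 CPM. These 9 members, Rps27 and Rpl27 among them, are therefore less certain than the rest.

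Across the zones, the ratios were higher at the central than at the portal end, an order that was lost when doublets were kept. The median log2 ratio of the members was 0.54 in pericentral, 0.50 in intermediate and 0.35 in periportal LSEC-like cells, where all genes had medians of -0.03, -0.03 and -0.05. At least 25% higher were 64 members in pericentral cells (17.6% of all genes), 62 in intermediate cells (11.8%) and 43 in periportal cells (11.5%). At least 20% lower were 0, 0 and 1 members (22.0%, 16.0% and 16.5% of all genes). At least 1.5-fold higher were 30, 22 and 3 members (7.84%, 3.90% and 3.89% of all genes). The ratio was higher in pericentral than in periportal cells for 75 of the 76 members, with a median difference of 0.19, and for 51.7% of 6628 genes in all. With 1 library per group this difference between zones could not be tested. With doublets kept and all cells clustered anew, the medians were 0.53, 0.40 and 0.54. At least 25% higher were then 63, 54 and 65 members, and the share of all genes was not computed for this setting. The periportal class thus no longer lay below the pericentral one. At a clustering resolution of 1.0 the medians were 0.54, 0.57 and 0.34.

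The widest gap was that of Rpl5, with 527.7 and 1061 CPM in pericentral cells (log2 ratio 1.01) and 588.3 and 865.8 CPM in periportal cells (0.56). Rps3a1, which lies near the mRNA exit of the small subunit, had 1278 and 2151 CPM in pericentral cells (0.75) and 1376 and 1744 CPM in periportal cells (0.34). Rps26 had 513.6 and 819.0 CPM (0.67) in the first and 523.6 and 670.1 CPM (0.36) in the second. In these 3 genes pericentral cells had the lower level in control and the higher level in cirrhosis, so both libraries entered the gap. At the other end, the difference was -0.02 for Rpl7l1, 0.01 for Rpl37 and 0.05 for Rpl22l1.

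Depth differed between the zones too, and was matched between the libraries within each zone, not between zones. Median UMIs were 7351 in control and 11831 in cirrhosis for pericentral cells, 7643.5 and 10117 for intermediate cells, and 5357 and 8023 for periportal cells. In the bin of 8000 to 16000 UMIs, the share was 7.72% and 10.5% in pericentral cells, 7.64% and 10.4% in intermediate cells, and 8.60% and 9.82% in periportal cells. Within this bin the median log2 ratio of the members was 0.47, 0.49 and 0.22, and from 4000 to 8000 UMIs it was 0.26, 0.29 and 0.04, so the periportal median was the lowest in both bins. Over all bins of a zone, which started at 4000 UMIs in pericentral, 2000 in intermediate and 1000 in periportal cells, the depth-matched median was 0.40, 0.44 and 0.11. Only 4 members of the periportal class were then at least 25% higher (11.7% of all genes), against 52 in pericentral (17.6%) and 58 in intermediate cells (11.5%). The matched ratio was higher in pericentral than in periportal cells for 74 of 76 members, with a median difference of 0.30 over these unlike bins, and for 51.4% of 6615 genes in all. The cluster led by Dnm3os, Gm42418 and Lars2 held 454 of the 1046 periportal cells in control and 356 of the 927 in cirrhosis. Without that cluster and without depth matching, the periportal median was 0.33, against 0.35 with the cluster.

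In large-vessel endothelial-like cells (86 control and 190 cirrhosis cells) the members were closer to their control level. The median log2 ratio was 0.22, against -0.01 over all genes, with 14 members at least 25% higher, against 18.1% of all genes, and 4 at least 20% lower, against 21.9%. None was 1.5-fold higher, against 6.85% of all genes. The count of higher members is near the share of all genes and is not particular to the members. Rpl5 had 737.8 and 1090.1 CPM (log2 ratio 0.56, interval 0.43 to 0.69) and Rpl15 790.8 and 1156 CPM (0.55, interval 0.42 to 0.67). Rps28 had 1110.3 and 610.7 CPM, a log2 ratio of -0.86 (interval -0.99 to -0.74). The count of higher members was 8 with depth matched (22.8% of all genes), 6 with a stricter filter on cells and 27 with doublets kept. The share of all genes was not computed for the stricter filter or with doublets kept. The 11 LSEC markers summed to 12481 CPM in control and 5664 in cirrhosis large-vessel endothelial-like cells. The 11 large-vessel markers summed to 4638 and 7785 CPM there, and the part of these differences in the result was not tested.

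Among the types that are not endothelial, Kupffer cell-like cells had the highest median log2 ratio, 0.56, with 64 members at least 25% higher (19.5% of all genes) and 0 at least 20% lower (22.9%). Rpl10a had 618.8 and 1380.4 CPM there (1.16), Rpl15 594.2 and 1274 CPM (1.10) and Rps2 1020.2 and 2130.2 CPM (1.06). These cells had come through the GFP+ sort, which selects cells that have expressed Cdh5-Cre, and carried endothelial transcripts: the 11 LSEC markers, all detected, summed to 10595 CPM in control and 7777 in cirrhosis, and their part in the result was not tested. With doublets kept, a cluster of 273 control and 624 cirrhosis cells led by Clec4f and Cd5l counted as mixed endothelial and Kupffer cell, so no ratio is given for that setting. First-step cluster 6, led by Ighg2c, gave 86 of the 356 cells in control and 1 of the 650 in cirrhosis. Without it the median was 0.40 with 50 members at least 25% higher, and the share of all genes was not computed. The control cells were deeper here, with a median of 6303.5 UMIs against 4319, and the depth-matched median was 0.46. Hepatocyte-like cells had a median of 0.39 with 52 members higher (21.0% of all genes) and 2 lower (30.8%), but 413 of their 419 control cells came from cluster 4 and 1324 of their 1329 cirrhosis cells from cluster 17, so cell state and library cannot be told apart. Their depth-matched median was 0.20, with 22 members higher (24.3% of all genes). The 11 LSEC markers summed to 8871 CPM in control and 4338 in cirrhosis hepatocyte-like cells, and their part was not tested.

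In the lymphoid and biliary classes the counts of higher members moved with the setting. The median log2 ratio was 0.28 in T or NK cell-like cells with 25 members at least 25% higher (13.8% of all genes) and 1 at least 20% lower (22.7%). The count of higher members there was 4 with cells weighted equally, 10 with cells thinned, 15 with depth matched and 38 under median-of-ratios scaling. In cholangiocyte-like cells the median was 0.22 with 12 members higher (13.7%) and 2 lower (17.2%). It was 0.34 there with 43 higher under the stricter cell filter, and 19 were higher with doublets kept and 6 with cells weighted equally. The share of all genes was not computed for the counts of either class under these alternative settings. In plasmacytoid dendritic cell-like cells the median was 0.13 with 0 members higher (15.2%) and 4 lower (17.6%). Monocyte or dendritic cell-like cells had a median of -0.14, against -0.09 over all genes, with 0 members at least 25% higher (17.6%) and 9 lower (28.7%). That median was -0.02 with depth matched and 0.05 with a stricter filter on cells, so its sign was not stable. Rps6 was 1565 and 1200 CPM in these cells (log2 ratio -0.38) and Rps2 2115 and 2241 CPM (0.08). The 11 LSEC markers, all detected, summed to 5827 CPM in control and 2107 in cirrhosis T or NK cell-like cells. In cholangiocyte-like cells they summed to 8002 and 5034 CPM, in plasmacytoid dendritic cell-like 9396 and 6612, and in monocyte or dendritic cell-like 5424 and 2790. The part of these endothelial transcripts in the results was not tested.

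**Figure D4:**
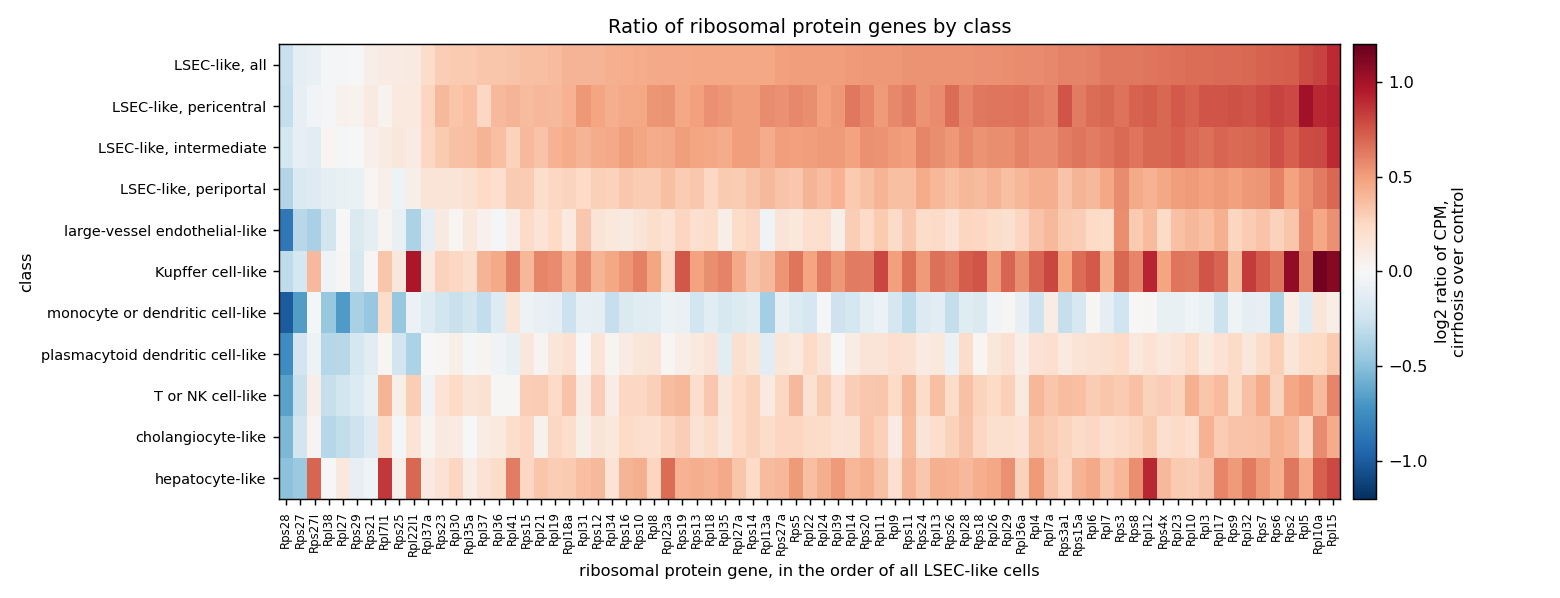
Log2 ratio of CPM, cirrhosis over control (colour, red higher in cirrhosis and blue lower), for 75 of the 76 ribosomal protein genes (x axis, ordered by their ratio in all LSEC-like cells) in the 11 classes (y axis). The lowest value is -0.999 for Rps28 in monocyte or dendritic cell-like cells and the highest is 1.16 for Rpl10a in Kupffer cell-like cells.

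All classes came from the same pair of libraries, so their values are given side by side and are not independent. Rps28 had its highest log2 ratio, -0.21, in intermediate LSEC-like cells and its lowest, -0.999, in monocyte or dendritic cell-like cells, where it had 1968 and 984.7 CPM. It stood at -0.75 in plasmacytoid dendritic cell-like, -0.64 in T or NK cell-like, -0.53 in cholangiocyte-like, -0.49 in hepatocyte-like and -0.31 in Kupffer cell-like cells. Rps27 ranged from -0.67 to -0.10, and Rpl15 from 0.08 in monocyte or dendritic cell-like to 1.10 in Kupffer cell-like cells.

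The 3 members with the largest range over the classes were Rpl22l1, Rps6 and Rpl5. Rpl22l1 had 247.8 and 485.1 CPM in Kupffer cell-like cells (log2 ratio 0.97) and 284.5 and 459.8 CPM in hepatocyte-like cells (0.69), but 471.0 and 361.2 CPM in plasmacytoid dendritic cell-like cells (-0.38) and 311.0 and 239.5 CPM in large-vessel endothelial-like cells (-0.38). Its share of the pair with Rpl22 was 23.9% (22.3 to 25.4) in control and 30.7% (29.7 to 31.7) in cirrhosis Kupffer cell-like cells, and 31.6% (29.4 to 33.8) and 23.2% (21.6 to 24.9) in plasmacytoid dendritic cell-like cells. The balance of this pair thus went in opposite directions in these classes, beyond counting error only. First-step cluster 6, with 86 control and 1 cirrhosis cells, is part of the Kupffer cell-like value, which was not computed without it. The plasmacytoid dendritic cell-like value rests on 61 control and 87 cirrhosis cells. Rps6 ran from -0.38 in monocyte or dendritic cell-like to 0.81 in pericentral cells, and Rpl5 from -0.15 to 1.01 in the same classes.

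The members with short coding sequences had the lowest ratios, with exceptions. In all LSEC-like cells, the 10 members with under 300 coding bases had a median log2 ratio of 0.03, the 26 from 300 to 450 bases 0.45, the 19 from 450 to 600 bases 0.50, and the 21 with 600 or more 0.63. Other genes in the same bins had medians of 0.06, 0.07, 0.05 and -0.06, so the ordering was not that of all genes. Across the 76 members, which share their libraries, Spearman's rho between coding length and ratio was 0.64 and Pearson's r 0.60, and across 6709 other genes rho was -0.16. Over the 11 classes the rho of the members lay between 0.35 and 0.72. Rps28 has 207 coding bases, Rpl38 210, Rps27 252 and Rps29 168, against 612 for Rpl15 and 891 for Rpl5. Exceptions were Rpl39, with 153 coding bases and a ratio of 0.50, Rpl41, the shortest with 75 and a ratio of 0.34, and Rpl7l1, with 738 and a ratio of 0.10. Of the 6 members whose transcript is under 400 bases the median was -0.01, and it was -0.18 for the only 8 other genes that short.

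**Figure D5:**
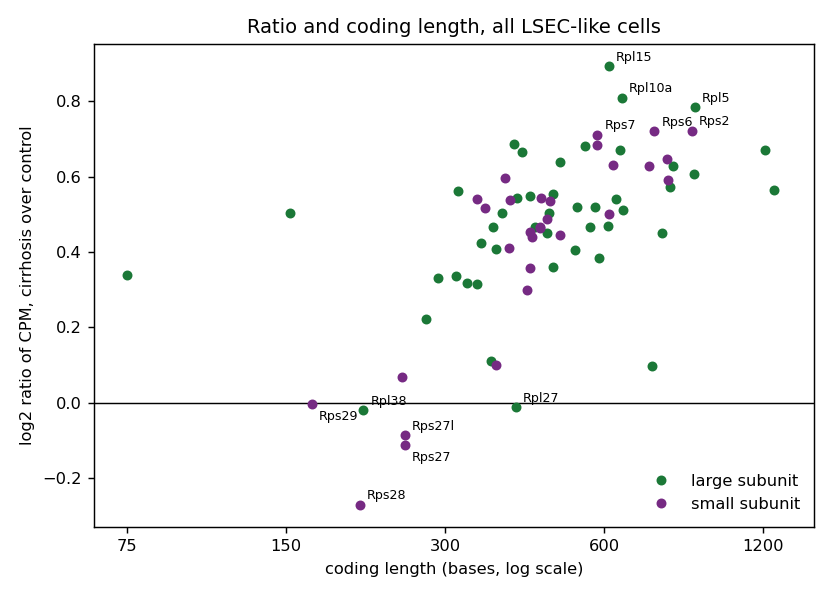
Log2 ratio of CPM, cirrhosis over control, in all LSEC-like cells (y axis) against coding length in bases (x axis, log scale) for 75 of the 76 ribosomal protein genes, with the large subunit in green and the small in purple and the 6 highest and 6 lowest members named. Members with under 300 coding bases have a median of 0.03 and those with 600 or more 0.63.

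Ribosomal proteins that the naming rule leaves out lay within the range of the members. Rplp0, the base of the acidic stalk, had 726.5 and 1248.5 CPM in LSEC-like cells (log2 ratio 0.78) and Rpsa 821.5 and 1314 CPM (0.68). Over the 7 genes of this list the median was 0.32, or 0.19 with depth matched, with 3 at least 25% higher (12.6% of all genes) and 0 lower (16.4%).

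Among other genes of translation, the TOP and elongation factor lists had medians above the 0.50 of the members. The further lists had lower medians. Among 17 further genes known to carry a TOP motif, all 17 had the higher CPM in cirrhosis and 16 were at least 25% higher, with a median log2 ratio of 0.61 (0.45 with depth matched). They ran from 0.30 for Eef1d to 1.30 for Vim, an intermediate filament gene that is also on the list of large-vessel markers. Of 6 elongation factors tested, partly on the same list, 4 were at least 25% higher, and Eef1a1, which brings aminoacyl-tRNA to the ribosome, had 2725 and 4505 CPM (0.72). Of 30 initiation factors, 10 were at least 25% higher and 1 lower, with a median of 0.21, from -0.55 for Eif4a2 to 0.61 for Eif3e. Factors of ribosome assembly had a median of 0.02, with 4 of 30 higher and 3 lower, among them Nhp2 at 0.83 and Taf1d at -0.61. Ribosomal proteins of mitochondria had a median of 0.06, with 2 of 68 at least 25% higher and 0 lower. A list of 21 genes tied to the control of ribosomal protein mRNAs also held genes of the p53 pathway. Of these, 19 reached a mean of 20 CPM, whereas Myc and Mycn did not. Among the 19, such as Tsc1 (-0.31) and Yy1 (0.18), 1 was at least 25% higher and 1 lower, with a median of -0.10. Against 12.6% of all genes at least 25% higher, the counts of the assembly factors and mitochondrial proteins were near or below the share of all genes.

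Transcripts of other cell types in the LSEC-like cells differed between the libraries. All 11 hepatocyte markers were detected in both and summed to 341.0 CPM in control and 464.8 in cirrhosis. The 10 Kupffer cell markers summed to 98.8 and 251.5 CPM, and the 8 stellate or fibroblast markers to 104.1 and 42.5 CPM. Leaving out the markers of other cell types, the immediate-early and the heat shock genes from the total gave a median log2 ratio of the members of 0.48.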

How the data were processed

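The data were UMI counts of 1 control and 1 cirrhosis library, made with droplet 3′ chemistry per the labels' protocols. The deposited tables held whole-number counts per gene symbol and barcode, not normalized, from Cell Ranger with mm10 per the submitters' processing notes; its version and the annotation were not given in the sources used here. Every barcode held at least 500 UMIs.

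Cells needed 500 UMIs, 300 genes, under 20% mitochondrial and at most 5% erythroid counts. Doublets were scored against simulated ones, and the top 0.8% per 1000 barcodes (214 control, 470 cirrhosis) were removed. Cells were clustered with scanpy 1.11.5 (2000 variable genes, 30 components, 20 neighbours, Leiden at 0.5) and endothelial cells again at 0.6, each library centred on its own, without cells holding over 0.5% of other types' markers. Ribosomal protein and haemoglobin genes entered neither clustering. Clusters were named from marker lists, zones at a mean marker fold of at least 0.4 (log2) with 66% of markers above the other clusters. These thresholds, both resolutions and the genes left out were chosen after seeing the data. The compared classes held 87.9% of control and 84.9% of cirrhosis cells kept.

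Counts were summed per library and class and given as CPM. Log2 ratios have exact conditional and shares exact (Clopper-Pearson) 95% intervals, from scipy 1.17.1, and were tested on simulated data. Genes entered with a mean of at least 20 CPM if both libraries had a count. Depth matching averaged bins of UMIs per cell, weighted by the smaller cell number, without bins under 20 cells. Gene lengths came from GENCODE M21 (GRCm38). Members and lists were chosen with earlier results of these data known. The members named were the 6 highest and 6 lowest in LSEC-like cells, the 3 highest and 3 lowest by zone difference, the 3 with the largest range, paralog pairs, and the 2 highest and 2 lowest of each list; others, such as Rpl39 and Rpl41, were chosen after their values were seen. Genes that the rule names and that are absent from the text are not reported here. Leaving out a low-depth endothelial, a pericentral or a Kupffer cell cluster, and a minimum coding length of 300 bases, were alternatives added after seeing the data.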

Additional observations from a re-analysis of the deposited data

Results flagged for a closer look

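The members had a median log2 ratio of -0.14 in monocyte or dendritic cell-like cells (81 control and 290 cirrhosis cells), the opposite sign to the other 10 classes, whose medians ran from 0.13 to 0.56. All classes came from the same pair of libraries, and the difference from the other classes was not tested. These cells had medians of 11088 UMIs in control and 16644 in cirrhosis, and the hepatocyte markers made up 0.0421% and 0.138% of their UMIs. The median was -0.02 with depth matched, -0.14 with each cell thinned and -0.23 with cells weighted equally. Leaving the markers of cell types outside the endothelium, the immediate-early and the heat shock genes out of the total gave -0.14. Beyond these settings and the stricter cell filter, the part of depth and of these markers in the result was not tested.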

How the results depend on the processing

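No paired analysis was possible because the labels give 1 library per group and no replicate numbers. In all LSEC-like cells the median log2 ratio of the members was 0.34 with depth matched, 0.54 with a stricter cell filter and 0.69 against control cells of cluster 1 alone, and 0.46 to 0.53 under the other 13 alternatives. The log2 ratio of the share (0.45) was 0.47 without mitochondrially encoded genes, 0.44 without other cell types' markers, immediate-early and heat shock genes, 0.30 with depth matched, 0.42 with cells thinned, 0.43 with cells weighted equally, 0.50 with the stricter filter, 0.45 with doublets kept, 0.47 at resolution 1.0, 0.43 with zones weighted equally, 0.65 and 0.42 against control cells of cluster 1 or 2, and 0.45 without the cluster led by Gm42418 and Lars2. The pericentral median was 0.40 and the intermediate 0.44 with depth matched, and the intermediate 0.40 with doublets kept and 0.57 at resolution 1.0. The periportal median was 0.39 under median-of-ratios scaling, 0.11 with depth matched, 0.31 thinned, 0.40 with the stricter filter and 0.54 with doublets kept, where its count of members at least 25% higher was 65, against 4 with depth matched. The large-vessel median was 0.14 with depth matched, 0.13 with the stricter filter and 0.28 with doublets kept, with counts of 8, 6 and 27. At 1.5-fold the counts were 20 in all LSEC-like, 30 in pericentral, 22 in intermediate, 3 in periportal and 0 in large-vessel cells. The cause of these shifts was not tested, and the share of all genes was not computed for the counts under the stricter filter or with doublets kept. Outside the endothelium, 1 of 68 alternatives turned a median, to 0.0517 in monocyte or dendritic cell-like cells with the stricter filter, and 20 others moved one. Of 1 library per group the spread between mice is not known, and intervals cover counting only.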

Other observations

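Some groups of cells outside the comparison had high ribosomal protein shares at low depth. An endothelial cluster low in UMIs (84 control and 88 cirrhosis cells, medians of 1796 and 2912 UMIs) had shares of 15.1% and 15.2%, where LSEC-like cells of 1000 to 2000 UMIs had 3.55% and 3.07%. An unnamed cluster of 42 cells, all from the cirrhosis library, had 22.3% at a median of 2552 UMIs. Plasma cell-like cells had 5.77% in 21 control cells and 13.4% in 39 cirrhosis cells, at medians of 27761 and 7733 UMIs. Cells that carried both endothelial and hepatocyte transcripts had 8.20% in control (287 cells) and 10.1% in cirrhosis (460 cells).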
